A study of Homo sapiens with 12 samples.

Results

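The 34 genes described here carry glucose through glycolysis and decide the fate of pyruvate. They were taken by name from the 57773 gene rows of the count files, and the Ensembl identifiers of all 34 were found. The list holds 2 genes for glucose uptake, 19 for the glycolytic steps and their control and 4 for lactate and its transport. The other 9 concern pyruvate oxidation in mitochondria, and 4 of these encode kinases that inhibit it. The rule names the genes and uses no measured value, although the genes were chosen with earlier results of these data known.

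The mRNA came from WI-38, a human lung fibroblast line with a limited lifespan, and was sequenced in bulk in 4 groups of 3 libraries. All cells had been transfected with a pool of siRNAs at 25 nM, and all were collected after 8 days. The proliferating group received the non-targeting control (siCtrl) and DMSO. The 3 senescent groups received 50 µM etoposide, a topoisomerase II inhibitor that breaks DNA, together with siCtrl, with siNTRK2, aimed at the mRNA of the receptor TrkB, or with siBDNF, aimed at the mRNA of its ligand. The cells are 1 line from 1 source, each target was silenced with 1 pool, and the p-values below measure the spread between the libraries of a group. The study states in general that its experiments were repeated independently, while no label ties these libraries to separate cultures, so that spread may be partly technical. In bulk RNA a smaller number of expressing cells and less RNA per cell cannot be told apart.

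The targeted genes were checked first. NTRK2 had 7, 15 and 10 counts in siCtrl-transfected senescent libraries and 0 in each of the 3 siNTRK2 libraries, a level at least 3.37-fold lower (set against a floor of 3 counts per library). BDNF mRNA stood at 161, 157 and 169 CPM (counts scaled to the normalized size of the library) with siCtrl and at 48.1, 48.9 and 44.3 with siBDNF (log2 FC -1.79 ± 0.0487, adjusted p = 1.72e-18), and it was higher with siNTRK2 (log2 FC 0.33 ± 0.046, adjusted p = 8.35e-06). Here and below, log2 FC is the fitted log2 fold change ± its standard error, and the adjusted p is that of edgeR's test described further on. Library totals ranged from 31567912 to 72328151 counts. The 7 fibroblast markers summed to between 22411 and 32715 CPM in every library, and the epithelial and endothelial markers to at most 1.43 and 2.59 CPM. The leukocyte list reached 182 CPM through CD68, a lysosomal protein, while PTPRC stayed at or below 1.07 CPM and was at 0 in proliferating cells.

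Glycolysis converts glucose to pyruvate in the cytosol. Hexokinase, phosphofructokinase and pyruvate kinase catalyze its irreversible steps, and several steps are shared among isozymes encoded by separate genes. Pyruvate is then either reduced to lactate, which leaves the cell with a proton through monocarboxylate transporters, or carried into mitochondria, where the pyruvate dehydrogenase complex turns it into acetyl-CoA unless pyruvate dehydrogenase kinases have switched the complex off. Senescent fibroblasts are known for remaining metabolically active after they stop dividing.

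In senescence these genes were called in both directions, at close to the share of all genes tested. With either siRNA, in contrast, most of the called members were lower. A gene was called when edgeR's quasi-likelihood test gave a Benjamini-Hochberg adjusted p under 0.05 over all 21518 genes tested, and all 34 members passed the filter on low counts. In siCtrl-transfected cells, 21 of the 34 were called between senescent and proliferating libraries, 11 higher and 10 lower, against 58.1% of all genes tested (29.8% higher and 28.3% lower). The median log2 fold change was 0.05 over the members and 0.02 over all genes. Of these, 4 also passed the study's further cutoff of an absolute log2 fold change over 1, as did 16.7% of all genes.

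Among senescent cells, siNTRK2 gave 15 called members, 14 of them lower than with siCtrl, where 10.0% of all genes tested were called lower, 11.1% higher and 21.1% in either direction. The median log2 fold change was -0.13 over the members against 0.00 over all genes. With siBDNF, 16 members were called, 13 lower and 3 higher, against 10.2% and 10.3% of all genes (20.5% in either direction). The median was -0.09 over the members and 0.00 over all genes. The changes were small: only PDK3 passed the further cutoff with siNTRK2 and no member did with siBDNF, although the unadjusted p was under 0.05 for 18 members there and DESeq2 called 17. Both siRNAs were set against the same 3 siCtrl libraries, so these counts are not independent of each other. The members called lower in both comparisons were SLC2A1, ALDOA, ALDOC, TPI1, GAPDH, PGAM1 and PDK2, 7 of 34 against 4.28% of all genes tested. None was called higher in both comparisons, as 4.77% of all genes were, and HK2 and PFKP were called in opposite directions, as 0.85% of all genes were.

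Library by library, the groups were apart in senescence for 12 members that were higher and 10 that were lower (61.3% of all genes were apart in either direction). They were apart with siNTRK2 for 3 higher and 18 lower (32.8% of all genes) and with siBDNF for 6 higher and 16 lower (37.3%).

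Summed, the members held 1.51 to 1.62% of all counts in proliferating libraries and 1.51 to 1.64% in siCtrl-transfected senescent libraries. They held 1.36 to 1.38% with siNTRK2 and 1.46 to 1.52% with siBDNF. The siNTRK2 libraries thus lay below all others, whereas the siBDNF libraries overlapped both siCtrl groups. GAPDH and PKM had the most counts among the members.

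**Figure D1:**
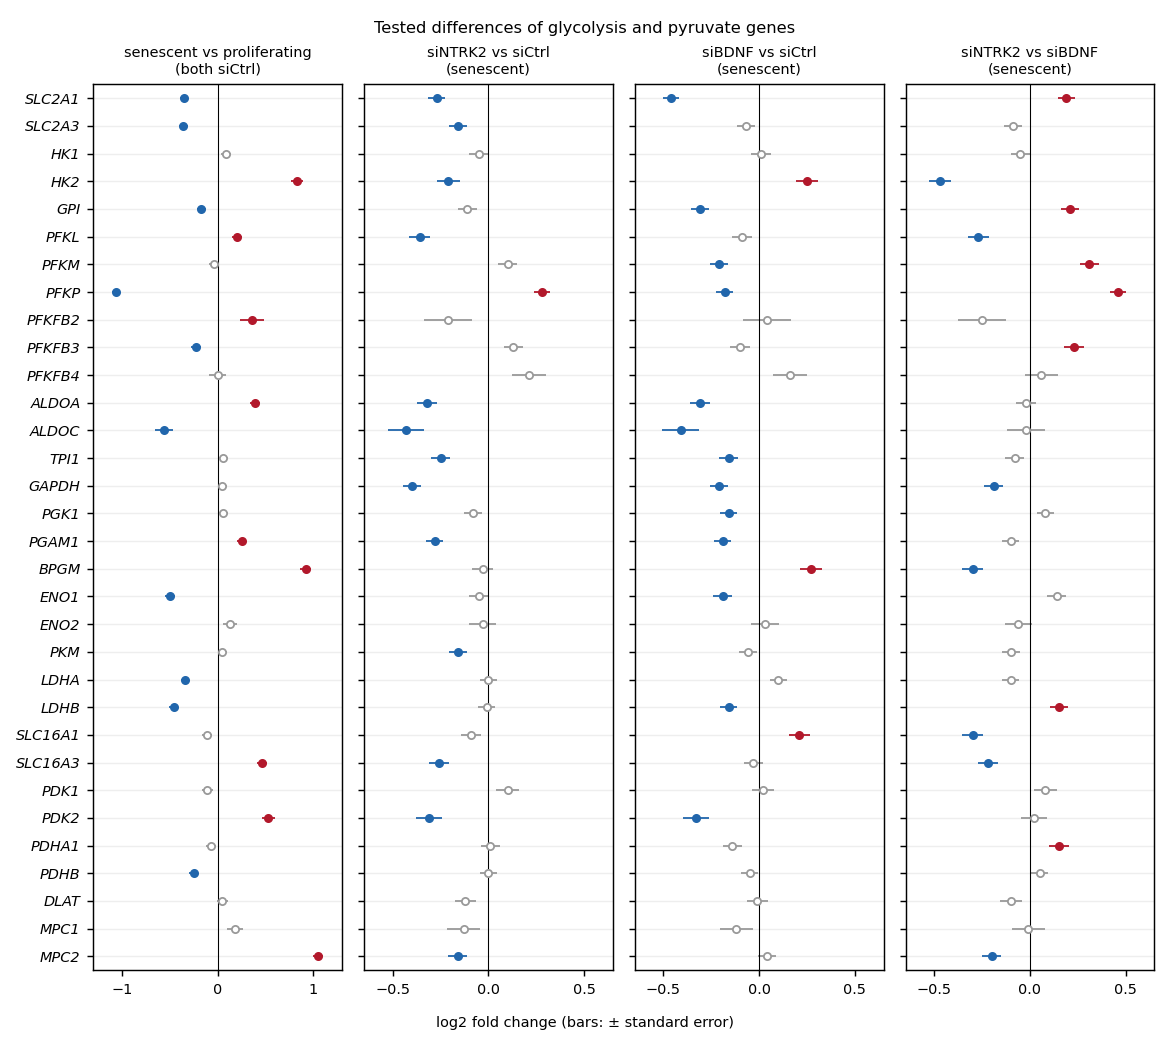
Log2 fold change (x axis) of 32 of the 34 genes (y axis, in pathway order) in the 4 comparisons, with bars of 1 standard error; red marks genes called higher, blue genes called lower and open grey circles genes not called, and the first panel has a wider scale. PFKP and MPC2 lie farthest from 0 in senescence, at -1.06 and 1.05, and blue points predominate in the panels of siNTRK2 and siBDNF against siCtrl; PDK3 and PDK4, with few counts, are left out.

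Both glucose uptake genes among the members were lower in senescence and, among senescent cells, with siNTRK2. Of the related transporter genes outside the list, SLC2A10 (log2 FC 0.23 ± 0.0495, adjusted p = 0.000331) and SLC2A8 (log2 FC 0.71 ± 0.0765, adjusted p = 1.83e-08) rose in senescence. SLC2A6, SLC2A12 and SLC2A13 were not called there. SLC2A1 (chr1:43391024-43424564 in GRCh37) encodes GLUT1, the main glucose transporter of proliferating cells. Its mRNA stood at 279, 274 and 291 CPM in proliferating libraries, 223, 210 and 229 in senescent libraries with siCtrl, 186, 180 and 184 with siNTRK2 and 162, 159 and 161 with siBDNF. The 4 groups did not overlap and descended in that order. The differences were called between senescent and proliferating cells (log2 FC -0.35 ± 0.0433, adjusted p = 1.64e-07), with siNTRK2 against siCtrl (log2 FC -0.27 ± 0.0434, adjusted p = 6.14e-05) and with siBDNF against siCtrl (log2 FC -0.46 ± 0.0436, adjusted p = 3.74e-08). SLC2A3, which encodes the high-affinity transporter GLUT3, was lower in senescence (log2 FC -0.36 ± 0.0455, adjusted p = 1.9e-07). It was also lower with siNTRK2 (log2 FC -0.16 ± 0.0458, adjusted p = 0.0153), a call that was lost without replicate 1 or 3 of the siCtrl-transfected senescent cells (log2 fold changes of -0.16 and -0.15, adjusted p = 0.0538 and 0.0524) and with no filter on low counts (-0.14, adjusted p = 0.0756). With siBDNF it was not called (log2 FC -0.07 ± 0.0458, adjusted p = 0.351). Rows annotated as SLC2A3 pseudogenes held 10.8 to 15.8% as many counts as SLC2A3 itself, so its counts are uncertain.

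Hexokinases trap glucose in the cell as glucose-6-phosphate. HK1, the widely expressed form, was not called in any comparison and ranged from 200 to 237 CPM over the 12 libraries. Its difference in senescence (log2 FC 0.09 ± 0.0507, adjusted p = 0.138) passed without replicate 3 of the proliferating cells (log2 fold change of 0.15, adjusted p = 0.0133) and with a filter of at least 10 counts in every library (0.12, adjusted p = 0.0399). It also passed with library totals only, without the normalization of library sizes (0.13, adjusted p = 0.0221), and with an offset for the length and GC content of each gene (0.11, adjusted p = 0.0158). HK2, the inducible form that binds mitochondria, stood at 23.3, 20.9 and 23.1 CPM in proliferating libraries, 40, 41.4 and 38.2 in senescent libraries with siCtrl, 35, 34 and 34.1 with siNTRK2 and 44.8, 50.7 and 46.9 with siBDNF. Every senescent library was above every proliferating one, and the 3 senescent groups were apart from each other, lowest with siNTRK2 and highest with siBDNF. HK2 thus rose in senescence (log2 FC 0.83 ± 0.0614, adjusted p = 1.55e-11), was lower with siNTRK2 (log2 FC -0.21 ± 0.0597, adjusted p = 0.0114) and was higher with siBDNF (log2 FC 0.25 ± 0.0591, adjusted p = 0.00294). The siNTRK2 call was lost without replicate 2 of the siCtrl-transfected senescent cells (log2 fold change of -0.18, adjusted p = 0.0592).

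Phosphofructokinase 1, which commits sugar to glycolysis, had a different leading isozyme in senescence, mainly through a lower PFKP level. PFKP (chr10:3108525-3179910 in GRCh37), the platelet form, stood at 217, 216 and 228 CPM in proliferating libraries and at 106, 105 and 106 in senescent libraries with siCtrl. It was 134, 126 and 125 with siNTRK2 and 93.1, 92.1 and 94.3 with siBDNF. The proliferating libraries were higher than all senescent ones, and among senescent cells the siNTRK2 libraries were above and the siBDNF libraries below those with siCtrl, with no overlap. PFKP accordingly fell in senescence (log2 FC -1.06 ± 0.0437, adjusted p = 1.71e-16), was the only member called higher with siNTRK2 (log2 FC 0.28 ± 0.0436, adjusted p = 4.22e-05) and was lower with siBDNF (log2 FC -0.18 ± 0.0439, adjusted p = 0.00344).

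PFKL, the liver form, moved the other way. It stood at 116, 112 and 125 CPM in proliferating libraries, 137, 131 and 137 in senescent libraries with siCtrl, 115, 98.4 and 102 with siNTRK2 and 128, 127 and 126 with siBDNF. The siNTRK2 libraries overlapped the proliferating ones and lay below the other senescent groups. PFKL rose in senescence (log2 FC 0.20 ± 0.0535, adjusted p = 0.00222) and was lower with siNTRK2 (log2 FC -0.36 ± 0.0536, adjusted p = 2.42e-05), while with siBDNF it was not called (log2 FC -0.09 ± 0.0534, adjusted p = 0.278). PFKM, the muscle form, was not called in senescence (log2 FC -0.04 ± 0.0491, adjusted p = 0.507) or with siNTRK2 (log2 FC 0.10 ± 0.049, adjusted p = 0.155). It was lower with siBDNF (log2 FC -0.21 ± 0.0494, adjusted p = 0.00319), at 71.3, 74.5 and 73.4 CPM against 86.5, 83.7 and 83.5 with siCtrl, and those libraries did not overlap.

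Expressed per kilobase of transcript, which allows genes to be compared, PFKP made up 55.0 ± 0.22% (SD, n = 3) of the summed phosphofructokinase 1 level in proliferating cells and 35.3 ± 0.297% in senescent cells with siCtrl. PFKL made up 26.5 ± 0.702% and 40.7 ± 0.417% in the same groups and so became the leading isozyme, as it did by raw counts and by merged exon length. With siNTRK2, PFKP led again at 42.7 ± 0.312% over 31.6 ± 1.72% for PFKL, whereas with siBDNF the shares were 34.5 ± 0.386% and 42.5 ± 0.439%. The summed level of the 3 isozymes was 153 ± 5.16 RPKM in proliferating cells, 114 ± 1.77 in senescent cells with siCtrl, 115 ± 4.06 with siNTRK2 and 103 ± 0.225 with siBDNF. From proliferating to senescent cells with siCtrl, PFKP went from 83.9 to 40.3 RPKM, PFKL from 40.4 to 46.5 and PFKM from 28.1 to 27.4. The larger PFKL share thus came mostly with the lower PFKP level. Among hexokinases, HK2 rose from 6.4 ± 0.475% of the summed HK1 and HK2 level in proliferating cells to 10.3 ± 0.708% in senescence. It was 9.24 ± 0.304% with siNTRK2 and 11.9 ± 0.692% with siBDNF. These shares are descriptions with no test, and they depend on the transcript length given to each gene. They count only the listed members of a step and leave out other genes that encode enzymes of the same step.

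**Figure D2:**
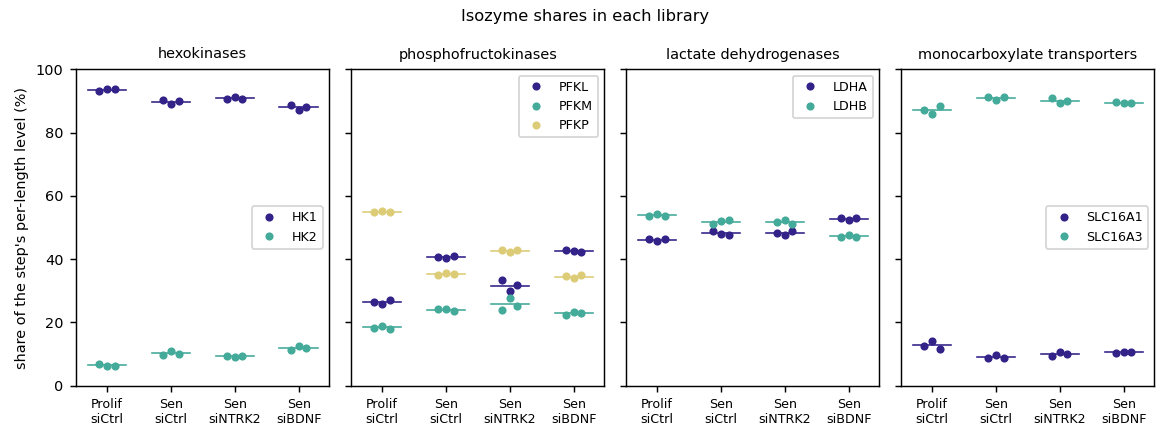
Share of each isozyme in the summed per-length level of the listed members of its step (y axis, percent) in the 3 libraries of each group (points; short lines are group means) for 4 steps. PFKP leads the phosphofructokinases in proliferating cells (55.0%) and with siNTRK2 (42.7%), PFKL leads in the other groups, and the LDHB share is lowest with siBDNF (47.3%).

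The PFKFB enzymes make and break down fructose 2,6-bisphosphate, the strongest activator of phosphofructokinase 1. PFKFB3, whose kinase activity predominates, was lower in senescence (log2 FC -0.23 ± 0.0508, adjusted p = 0.0004) and was not called with siNTRK2 (log2 FC 0.13 ± 0.0508, adjusted p = 0.0689) or siBDNF (log2 FC -0.10 ± 0.0511, adjusted p = 0.19), although with library totals only it was called higher with siNTRK2 (0.15, adjusted p = 0.0414). PFKFB2 was higher in senescence (log2 FC 0.36 ± 0.127, adjusted p = 0.0184), at 4.93 to 5.31 CPM against 3.23 to 4.63. The call was lost without replicate 2 of the proliferating cells (log2 fold change of 0.20, adjusted p = 0.212) or replicate 2 of the senescent cells (0.31, adjusted p = 0.0697). PFKFB4 was not called in any comparison, and passed with siNTRK2 only without replicate 2 of that group (log2 fold change of 0.33, adjusted p = 0.00538). Among the upper steps, GPI, the isomerase between hexokinase and phosphofructokinase, was lower in senescence (log2 FC -0.17 ± 0.0485, adjusted p = 0.00372) and with siBDNF (log2 FC -0.31 ± 0.0487, adjusted p = 4.53e-05). It stood at 220, 217 and 245 CPM in proliferating libraries, 205, 191 and 209 in senescent libraries with siCtrl, 191, 184 and 188 with siNTRK2 and 160, 161 and 166 with siBDNF, the last group below all others. With siNTRK2 GPI was not called (log2 FC -0.11 ± 0.0485, adjusted p = 0.13), except under the offset for length and GC content (-0.13, adjusted p = 0.013). The row ENSG00000266953 overlaps GPI on the same strand, so strand does not separate their counts. It changed by -0.19 in senescence and by -0.31 with siBDNF on the log2 scale.

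Aldolases split fructose 1,6-bisphosphate into triose phosphates. ALDOA, the main fibroblast form here by per-length level, stood at 962, 943 and 1064 CPM in proliferating libraries, 1363, 1195 and 1330 in senescent libraries with siCtrl, 1087, 987 and 1034 with siNTRK2 and 1042, 1026 and 1077 with siBDNF. The siCtrl-transfected senescent libraries were above all 9 others. ALDOA rose in senescence (log2 FC 0.39 ± 0.0522, adjusted p = 6.05e-07) and was lower with siNTRK2 (log2 FC -0.32 ± 0.0522, adjusted p = 6.7e-05) and with siBDNF (log2 FC -0.31 ± 0.0522, adjusted p = 0.000144). ALDOC, the brain form, was lower in all 3 comparisons. It stood at 15.9, 16.6 and 20 CPM in proliferating libraries, 12.4, 10.8 and 12.3 in senescent libraries with siCtrl, 8.07, 9.72 and 8.55 with siNTRK2 and 8.76, 8.6 and 9.34 with siBDNF, so that both silenced groups lay below every siCtrl library. The log2 fold changes were -0.56 ± 0.0922 in senescence (adjusted p = 1.15e-05), -0.43 ± 0.0956 with siNTRK2 (adjusted p = 0.00191) and -0.41 ± 0.0958 with siBDNF (adjusted p = 0.00322). The row ENSG00000265168, which overlaps ALDOC on the opposite strand, was also lower in senescence (log2 fold change of -0.65, adjusted p = 0.000559), and whether the authors' counting used the strand is not stated in the sources used here.

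Sequences upstream of 3 members are shown because these genes moved unlike each other: ALDOC was lower in each comparison above, PFKL rose in senescence and was lower with siNTRK2, and BPGM, described next, rose in senescence and again with siBDNF. They are the 250 bases before the start of each gene in RefSeq (GRCh38.p14), 5′ to 3′ on the gene's strand, at chr17:28576896-28577145 (minus), chr21:44299803-44300052 (plus) and chr7:134646603-134646852 (plus). Capitals mark ACGTG on either strand, 1 form of the core of the element that hypoxia-inducible factors bind. The other form, GCGTG, was neither marked nor counted. CACGTG, the E-box that MYC and ChREBP can bind, contains ACGTG on both strands.
ALDOC: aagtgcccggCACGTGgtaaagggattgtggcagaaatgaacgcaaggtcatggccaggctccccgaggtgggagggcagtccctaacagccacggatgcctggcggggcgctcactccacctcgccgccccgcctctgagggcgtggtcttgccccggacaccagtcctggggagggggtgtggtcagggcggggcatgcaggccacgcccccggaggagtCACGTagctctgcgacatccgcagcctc
PFKL: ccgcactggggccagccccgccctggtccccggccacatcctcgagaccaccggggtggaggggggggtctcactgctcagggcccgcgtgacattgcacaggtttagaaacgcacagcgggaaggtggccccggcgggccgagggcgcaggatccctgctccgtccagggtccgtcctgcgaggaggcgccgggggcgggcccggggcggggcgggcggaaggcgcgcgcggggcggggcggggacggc
BPGM: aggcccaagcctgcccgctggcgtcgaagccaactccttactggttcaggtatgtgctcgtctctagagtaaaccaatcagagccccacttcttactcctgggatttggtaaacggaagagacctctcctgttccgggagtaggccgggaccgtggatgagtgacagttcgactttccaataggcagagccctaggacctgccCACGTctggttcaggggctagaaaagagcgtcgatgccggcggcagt
The ALDOC window holds ACGTG 3 times, counting both strands of its CACGTG, and the BPGM window holds it 1 time. The PFKL window, with 78.0% G and C, does not hold ACGTG. The unmarked GCGTG occurs in the ALDOC and PFKL windows. Over all 35116 RefSeq promoter windows of this length, 18.5% hold ACGTG and 6.34% hold CACGTG. Windows were found for 31 of the 34 members (not for SLC2A3, PFKFB2 and SLC16A1), and 22 of their 61 windows (36.1%), belonging to 19 members, hold ACGTG. A match of letters is a description and does not show that a factor was bound.

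In the later steps of glycolysis several of the most abundant mRNAs were lower with siNTRK2. GAPDH, the highest of the 34 by per-length level in all 4 groups, stood at 4801, 4970 and 5479 CPM in proliferating libraries, 5492, 4884 and 5442 in senescent libraries with siCtrl, 4018, 3949 and 3992 with siNTRK2 and 4544, 4423 and 4702 with siBDNF. The siNTRK2 libraries were below all others and those with siBDNF were below both siCtrl groups. GAPDH was not called in senescence (log2 FC 0.05 ± 0.0486, adjusted p = 0.367), except without replicate 3 of the proliferating cells (0.11, adjusted p = 0.0497), and was lower with siNTRK2 (log2 FC -0.40 ± 0.0487, adjusted p = 1.35e-06) and siBDNF (log2 FC -0.21 ± 0.0486, adjusted p = 0.00272). GAPDH is often used as a reference transcript for RT-qPCR, although the study normalized its own RT-qPCR to ACTB mRNA. The overlapping row ENSG00000269968, on the opposite strand, changed by -0.39 with siNTRK2 on the log2 scale.

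TPI1, which interconverts the triose phosphates, was lower with siNTRK2 (log2 FC -0.25 ± 0.0503, adjusted p = 0.000906). With siBDNF it was also called lower (log2 FC -0.16 ± 0.0503, adjusted p = 0.0229), although 1 siCtrl library was within the range of the siBDNF libraries. That call was lost without replicate 1 or 3 of siCtrl or without replicate 1 or 2 of siBDNF (log2 fold changes of -0.16 to -0.13, adjusted p = 0.069 to 0.144), with library totals only (-0.10, adjusted p = 0.0993) and with the offset for length and GC content (-0.06, adjusted p = 0.271). In senescence TPI1 was not called (log2 FC 0.06 ± 0.0502, adjusted p = 0.291) except without replicate 2 of the senescent cells (0.11, adjusted p = 0.044). PGK1, which makes the first ATP of the pathway, was called with siBDNF (log2 FC -0.16 ± 0.0455, adjusted p = 0.0129), a call lost without replicate 3 of siCtrl, without replicate 1 or 2 of siBDNF (-0.15 to -0.13, adjusted p = 0.0577 to 0.102) or with library totals only (-0.10, adjusted p = 0.0757). PGK1 was not called in senescence (log2 FC 0.06 ± 0.0455, adjusted p = 0.267) or with siNTRK2 (log2 FC -0.08 ± 0.0455, adjusted p = 0.221). It rose in senescence with library totals only (0.10, adjusted p = 0.043) and under the offset (0.24, adjusted p = 3.25e-05), which also gave a lower level with siNTRK2 (-0.17, adjusted p = 0.00518). PGAM1, the phosphoglycerate mutase, rose in senescence (log2 FC 0.25 ± 0.0446, adjusted p = 2.78e-05) and was lower with siNTRK2 (log2 FC -0.28 ± 0.0446, adjusted p = 4.78e-05) and siBDNF (log2 FC -0.19 ± 0.0446, adjusted p = 0.00367).

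BPGM, which makes 2,3-bisphosphoglycerate and is best known from red blood cells, was among the members that rose most. It stood at 26.4, 30.3 and 28.4 CPM in proliferating libraries, 52.8, 53 and 56 in senescent libraries with siCtrl, 51.4, 51.6 and 55.5 with siNTRK2 and 65.8, 62.9 and 66.8 with siBDNF. All senescent libraries were above all proliferating ones, the siBDNF group was highest, and the siNTRK2 and siCtrl groups overlapped. BPGM rose in senescence (log2 FC 0.92 ± 0.0576, adjusted p = 5.95e-13) and was higher with siBDNF (log2 FC 0.27 ± 0.0555, adjusted p = 0.000836), and was not called with siNTRK2 (log2 FC -0.03 ± 0.0557, adjusted p = 0.761).

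Enolase makes phosphoenolpyruvate. ENO1, the ubiquitous form, stood at 1571, 1608 and 1740 CPM in proliferating libraries and at 1196, 1059 and 1211 in senescent libraries with siCtrl, which did not overlap. It was 1112, 1137 and 1093 with siNTRK2 and 1010, 989 and 1044 with siBDNF. ENO1 fell in senescence (log2 FC -0.50 ± 0.0492, adjusted p = 2.85e-09), was not called with siNTRK2 (log2 FC -0.05 ± 0.0491, adjusted p = 0.503) and was lower with siBDNF (log2 FC -0.19 ± 0.0491, adjusted p = 0.00712). That last call was lost without replicate 1 or 3 of siCtrl or replicate 2 of siBDNF (-0.17 to -0.15, adjusted p = 0.0506 to 0.063). ENO2, the neuronal form, was not called in any comparison, but passed in senescence without replicate 3 of the proliferating or replicate 2 of the senescent cells (0.21 and 0.18, adjusted p = 0.0144 and 0.0402) and with library totals only (0.16, adjusted p = 0.0465). PKM, which encodes the pyruvate kinases M1 and M2 and was the next most abundant member after GAPDH per length, was not called in senescence (log2 FC 0.05 ± 0.0461, adjusted p = 0.37) or with siBDNF (log2 FC -0.06 ± 0.0461, adjusted p = 0.433). It was lower with siNTRK2 (log2 FC -0.16 ± 0.0461, adjusted p = 0.0147), a call lost without replicate 1 or 3 of siCtrl or replicate 3 of siNTRK2 (-0.16 to -0.13, adjusted p = 0.0538 to 0.104).

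**Figure D3:**
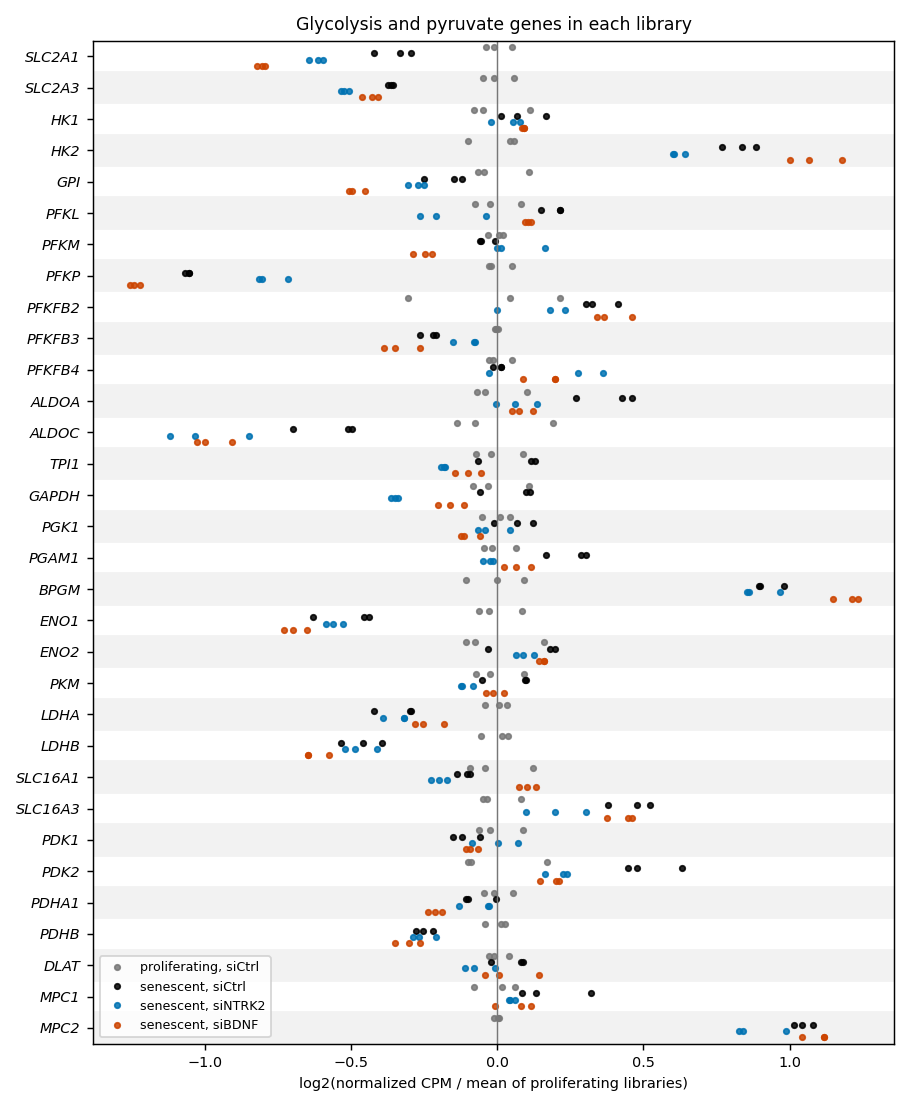
Normalized CPM of each library divided by the mean of the proliferating libraries, on a log2 scale (x axis), for 32 genes in pathway order (y axis); each point is 1 library and colors give the 4 groups. The SLC2A1 points descend from proliferating to siBDNF libraries without overlap, the PFKP points of all senescent libraries lie left of all proliferating ones, and those of GAPDH separate the siNTRK2 libraries (3949 to 4018 CPM) from all others; PDK3 and PDK4, with few counts, are left out.

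Of the 4 genes of lactate handling, 2 fell and 1 rose in senescence, where 28.3% of all genes tested fell and 29.8% rose. Lactate dehydrogenase interconverts pyruvate and lactate, and the subunits encoded by LDHA and LDHB differ in their preferred direction. LDHA fell in senescence (log2 FC -0.34 ± 0.0447, adjusted p = 5.38e-07) and was not called with siNTRK2 (log2 FC 0.00 ± 0.0447, adjusted p = 0.964) or siBDNF (log2 FC 0.10 ± 0.0447, adjusted p = 0.135), although with library totals only it was called higher with siBDNF (0.16, adjusted p = 0.00556). LDHB stood at 502, 535 and 527 CPM in proliferating libraries and 379, 360 and 397 in senescent libraries with siCtrl, and was 363, 392 and 372 with siNTRK2 and 333, 333 and 350 with siBDNF. The proliferating libraries were above all others and the siBDNF libraries below all others. LDHB fell in senescence (log2 FC -0.46 ± 0.046, adjusted p = 4.49e-09) and with siBDNF (log2 FC -0.16 ± 0.0461, adjusted p = 0.0133), where the call was lost without replicate 3 of siCtrl, without replicate 1 or 2 of siBDNF (-0.15 to -0.12, adjusted p = 0.069 to 0.111) or with library totals only (-0.10, adjusted p = 0.0801). LDHB made up 53.9 ± 0.452% of the summed per-length level in proliferating cells, 51.8 ± 0.642% in senescence, 51.6 ± 0.631% with siNTRK2 and 47.3 ± 0.3% with siBDNF. Which of the subunits led depended on the length used, since by raw counts the LDHB share was between 34.29 and 40.49%. LDHA pseudogene rows held 2.83 to 4.13% as many counts as LDHA.

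SLC16A3 encodes MCT4, the transporter that exports lactate from glycolytic cells. Its mRNA stood at 299, 296 and 324 CPM in proliferating libraries, 440, 398 and 426 in senescent libraries with siCtrl, 378, 328 and 351 with siNTRK2 and 417, 397 and 421 with siBDNF. It rose in senescence (log2 FC 0.46 ± 0.0522, adjusted p = 3.95e-08) and was lower with siNTRK2 (log2 FC -0.26 ± 0.052, adjusted p = 0.000771), whose libraries lay between the proliferating group and the other senescent groups. With siBDNF it was not called (log2 FC -0.03 ± 0.052, adjusted p = 0.732). CSNK1D, which overlaps it on the opposite strand, also rose in senescence (log2 fold change of 0.37) and was not called with siNTRK2 (-0.08, adjusted p = 0.189). SLC16A1 encodes MCT1, which carries lactate in either direction. It stood at 60.5, 60.9 and 59 CPM in senescent libraries with siCtrl and at 68.3, 69.7 and 71.1 with siBDNF, where it was called higher (log2 FC 0.21 ± 0.0529, adjusted p = 0.00481) and the libraries did not overlap. SLC16A1 was not called with siNTRK2 (log2 FC -0.09 ± 0.0531, adjusted p = 0.255) or in senescence (log2 FC -0.11 ± 0.053, adjusted p = 0.0759), except without replicate 1 or 3 of the proliferating cells (-0.15 and -0.16, adjusted p = 0.0417 and 0.0157). The offset for length and GC content turned its direction in senescence, where it was then called higher (0.11, adjusted p = 0.0292), and gave a call of lower with siNTRK2 (-0.17, adjusted p = 0.005).

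The largest increases in senescence among the members were in MPC2 and in the scarce PDK3 and PDK4, which encode kinases that inhibit pyruvate oxidation. MPC2, a subunit of the mitochondrial pyruvate carrier, stood at 54.1, 53.5 and 54 CPM in proliferating libraries, 111, 109 and 114 in senescent libraries with siCtrl, 96.6, 95.7 and 107 with siNTRK2 and 117, 111 and 117 with siBDNF. All senescent libraries were above all proliferating ones. MPC2 rose in senescence (log2 FC 1.05 ± 0.05, adjusted p = 2.83e-15); DCAF6, which overlaps it on the opposite strand, rose by 0.44. With siNTRK2 it was lower (log2 FC -0.16 ± 0.0487, adjusted p = 0.0197), a call lost without replicate 1 or 3 of siCtrl or replicate 1 or 2 of siNTRK2 (-0.17 to -0.12, adjusted p = 0.054 to 0.118). MPC1, the partner subunit, was not called in any comparison (log2 FC 0.18 ± 0.0859, adjusted p = 0.0773 in senescence). Its rise in senescence passed with library totals only (0.21, adjusted p = 0.0364), with at least 10 counts in every library (0.21, adjusted p = 0.0342) and with the offset for length and GC content (0.31, adjusted p = 0.00161).

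Of the pyruvate dehydrogenase kinases, which phosphorylate and inhibit the complex, PDK2 was the most abundant per length in every group. It stood at 29.5, 29.7 and 35.6 CPM in proliferating libraries, 49, 43.1 and 44 in senescent libraries with siCtrl, 37.3, 35.4 and 36.9 with siNTRK2 and 36.6, 35 and 36.3 with siBDNF. The siCtrl-transfected senescent libraries were above all 9 others. PDK2 rose in senescence (log2 FC 0.53 ± 0.0668, adjusted p = 2.47e-07) and was lower with siNTRK2 (log2 FC -0.31 ± 0.0661, adjusted p = 0.00129) and siBDNF (log2 FC -0.33 ± 0.0663, adjusted p = 0.000653). SAMD14, which overlaps PDK2 on the opposite strand, moved in the same directions (0.18, -0.23 and -0.45). PDK1 was not called in any comparison (log2 FC 0.02 ± 0.0588, adjusted p = 0.872 with siBDNF), but was called lower with siBDNF under the offset for length and GC content (-0.24, adjusted p = 0.00203). Without regard to length, PDK1 (35.3 CPM on average) was above PDK2 (31.6 CPM) in proliferating cells.

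PDK4, which fasting and fatty acids induce in many tissues, had no count in any proliferating library. It had 41, 46 and 47 counts in the senescent libraries with siCtrl, a level at least 13.1-fold higher (mean of 0.779 CPM against a floor of 3 counts per library; adjusted p = 2.33e-08). There were 27, 44 and 14 counts with siNTRK2 and 37, 82 and 84 with siBDNF, so that PDK4 was detected in all 9 senescent libraries at a low level. Such a rise from no counts was not particular to PDK4. The leukocyte gene PTPRC and the endothelial gene CDH5 also had none in proliferating libraries. They averaged 0.944 and 0.163 CPM in senescent libraries with siCtrl, and the source of such low counts was not tested. Neither siRNA gave a call against siCtrl (log2 FC -0.57 ± 0.362, adjusted p = 0.292 with siNTRK2; log2 FC 0.61 ± 0.34, adjusted p = 0.237 with siBDNF). Without replicate 2 of siNTRK2, that comparison passed (-1.13, adjusted p = 0.0322).

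PDK3 was scarcer still, with 8, 15 and 6 counts in proliferating libraries, 14, 16 and 42 in senescent libraries with siCtrl, 7, 5 and 7 with siNTRK2 and 9, 22 and 31 with siBDNF. Replicate 3 of the siCtrl-transfected senescent cells stood above the rest. PDK3 was called higher in senescence (log2 FC 1.24 ± 0.513, adjusted p = 0.0412) and lower with siNTRK2 (log2 FC -1.84 ± 0.54, adjusted p = 0.0159), and both calls were lost without that library (0.57, adjusted p = 0.422, and -1.17, adjusted p = 0.209). The senescence call was also lost without each of the proliferating libraries in turn (1.10 to 1.43, adjusted p = 0.0621 to 0.134), with the replicate number as a block (1.11, adjusted p = 0.0685) and with no filter on low counts (1.22, adjusted p = 0.0702).

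Of the 3 subunits of the complex among the members, 1 was called in senescence. PDHB, the beta subunit of its first enzyme, fell in senescence (log2 FC -0.25 ± 0.0454, adjusted p = 3.99e-05) and was not called with siNTRK2 (log2 FC 0.00 ± 0.0455, adjusted p = 0.972) or siBDNF (log2 FC -0.05 ± 0.0456, adjusted p = 0.494). PDHA1, the alpha subunit, which the kinases phosphorylate, was not called in senescence (log2 FC -0.07 ± 0.0513, adjusted p = 0.27) or with siNTRK2 (log2 FC 0.01 ± 0.0513, adjusted p = 0.96). With siBDNF it lay just outside the threshold of edgeR's test (log2 FC -0.14 ± 0.0515, adjusted p = 0.0502). It was called lower by DESeq2, the study's tool (-0.15, adjusted p = 0.0294), and in 4 other settings, among them a fit of only the groups compared (-0.15, adjusted p = 0.0206) and the offset for length and GC content (-0.14, adjusted p = 0.0251). DLAT, the acetyltransferase, was not called in any comparison, except that the offset for length and GC content gave a rise in senescence (0.27, adjusted p = 3.41e-05) and a lower level with siNTRK2 (-0.19, adjusted p = 0.00476). Counted by role, 4 of the 9 genes of pyruvate oxidation and its control rose and 1 fell in senescence. The 4 that rose were MPC2 and the inhibitory kinases PDK2, PDK3 and PDK4, and the 1 that fell was PDHB. The PDK3 call rested on 1 library, as given above. Of 19 glycolytic genes 6 rose and 5 fell, of 4 lactate genes 1 and 2, and of 2 uptake genes 0 and 2. Of all genes tested, 29.8% rose and 28.3% fell. With siNTRK2 the called genes were lower in 8 glycolytic, 3 pyruvate oxidation, 2 uptake and 1 lactate gene, and with siBDNF in 10, 1, 1 and 1, where 10.0% and 10.2% of all genes tested were lower. Those 3 were MPC2 and the kinases PDK2 and PDK3, and with siBDNF the 1 was PDK2.

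The siRNAs were also compared with each other, which does not involve the siCtrl libraries. Of the 34 members, 16 differed between siNTRK2 and siBDNF, 7 higher and 9 lower with siNTRK2, against 8.84% and 7.86% of all genes tested (16.7% in either direction). With library totals only the split was 5 higher and 12 lower, and with the offset for length and GC content 7 and 14. PFKP was higher with siNTRK2 (log2 FC 0.46 ± 0.0438, adjusted p = 2.21e-08), as was PFKM (log2 FC 0.31 ± 0.0494, adjusted p = 5.7e-05). The same held for PFKFB3 (log2 FC 0.23 ± 0.0511, adjusted p = 0.00218), GPI (log2 FC 0.21 ± 0.0487, adjusted p = 0.00352) and SLC2A1 (log2 FC 0.19 ± 0.0436, adjusted p = 0.00361). PFKM stood at 87.8, 97.4 and 87 CPM with siNTRK2 and 71.3, 74.5 and 73.4 with siBDNF, and PFKFB3 at 50.4, 50.3 and 47.8 and 40.6, 44.2 and 41.7, without overlap in either case. LDHB was called higher as well (log2 FC 0.15 ± 0.0461, adjusted p = 0.0267), which did not hold without replicate 2 or 3 of siNTRK2 or replicate 1 or 2 of siBDNF (0.12 to 0.16, adjusted p = 0.0523 to 0.0942) or with library totals only (0.11, adjusted p = 0.0717). The call for PDHA1 (log2 FC 0.15 ± 0.0516, adjusted p = 0.0494) was at the threshold and was lost in 6 further settings, which included library totals only (0.11, adjusted p = 0.136) and no filter on low counts (0.15, adjusted p = 0.0889), and in 5 of the 6 fits that left out a library (0.13 to 0.16, adjusted p = 0.101 to 0.13).

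Lower with siNTRK2 in the same comparison were HK2 (log2 FC -0.47 ± 0.0596, adjusted p = 2.72e-06), BPGM (log2 FC -0.30 ± 0.0557, adjusted p = 0.000316) and SLC16A1 (log2 FC -0.30 ± 0.0531, adjusted p = 0.000187). So were PFKL (log2 FC -0.27 ± 0.0537, adjusted p = 0.000755), SLC16A3 (log2 FC -0.22 ± 0.0521, adjusted p = 0.00336), MPC2 (log2 FC -0.20 ± 0.0488, adjusted p = 0.00424) and GAPDH (log2 FC -0.19 ± 0.0486, adjusted p = 0.00676). In each of these 7 genes the libraries of both groups were apart, as they were for 8 members higher and 17 lower in all. Of all genes tested, 16.8% were apart and higher and 17.3% apart and lower (34.2% in either direction). PDK4 (log2 FC -1.19 ± 0.355, adjusted p = 0.0231) and PDK3 (log2 FC -1.61 ± 0.547, adjusted p = 0.0434) were lower as well and passed the further cutoff, as 1.16% of all genes did. The PDK3 call was lost without any 1 of the 6 libraries (-1.73 to -1.38, adjusted p = 0.068 to 0.204), with the replicate number as a block (adjusted p = 0.0524) and with no filter on low counts (adjusted p = 0.0573), and the PDK4 call without any library other than replicate 2 of siNTRK2 (-1.21 to -0.87, adjusted p = 0.0539 to 0.107).

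Markers of cell division and of senescence moved with the siNTRK2 results. The 4 proliferation markers (MKI67, TOP2A, CCNB1 and LMNB1) summed to 222 to 236 CPM in proliferating libraries and 26 to 27.6 in senescent libraries with siCtrl. They summed to 49.1 to 50 CPM with siNTRK2, where all 4 were called higher, and to 27.9 to 29.2 with siBDNF, where MKI67 was. Of the senescence markers, CDKN1A (log2 FC -0.50 ± 0.0412, adjusted p = 2.8e-09) and GDF15 (log2 FC -0.62 ± 0.0525, adjusted p = 4.79e-09) were lower with siNTRK2, whereas CDKN2A was called higher (log2 FC 0.21 ± 0.0656, adjusted p = 0.0251) with overlapping libraries. None of these 3 was called with siBDNF. CD68 stood at 106, 113 and 109 CPM with siCtrl, 79.5, 75.8 and 77.4 with siNTRK2 and 178, 180 and 181 with siBDNF. Their part in the values of the glycolytic genes was not tested.

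Most genes of 2 branches that draw carbon from glycolysis fell in senescence, where 28.3% of all genes tested were called lower and 29.8% higher. Of 7 genes of the pentose phosphate pathway, which supplies ribose and NADPH, 6 fell and none rose. TKT, a transketolase, stood at 658, 638 and 699 CPM in proliferating and 304, 291 and 312 in senescent libraries (log2 FC -1.14 ± 0.0449, adjusted p = 6.96e-17). Of 8 genes of the serine and glycerol branches, 6 fell and 2 rose. PHGDH, the first enzyme of serine synthesis, stood at 126, 121 and 135 CPM in proliferating and 29.1, 28.6 and 26.8 in senescent libraries (log2 FC -2.17 ± 0.0555, adjusted p = 1.34e-20), and PSAT1, the next enzyme, fell too (log2 FC -1.86 ± 0.0515, adjusted p = 6.05e-20). The rises were in GPD1L (log2 FC 0.42 ± 0.111, adjusted p = 0.00194) and in GPD1, which stayed under 0.4 CPM in every library.

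With siBDNF, 4 of the 7 pentose phosphate genes were lower, among them PGD (log2 FC -0.28 ± 0.0484, adjusted p = 0.000145), and with siNTRK2 PGLS alone (log2 FC -0.25 ± 0.0629, adjusted p = 0.0052). Of all genes tested, 10.2% were lower with siBDNF and 10.0% with siNTRK2. PHGDH and PSAT1 were lower with siBDNF (log2 FC -0.55 ± 0.0579, adjusted p = 1.66e-07 for PHGDH; log2 FC -0.46 ± 0.0532, adjusted p = 8.01e-07 for PSAT1) and with siNTRK2 (log2 FC -0.27 ± 0.0569, adjusted p = 0.00111; log2 FC -0.26 ± 0.0526, adjusted p = 0.000921). In the tricarboxylic acid cycle, 8 of 17 genes were lower with siBDNF and none higher, led by MDH2 (log2 FC -0.29 ± 0.0496, adjusted p = 0.000147) and SUCLG1 (log2 FC -0.28 ± 0.0485, adjusted p = 0.00015). With siNTRK2, 4 were lower and none higher, led by MDH2 (log2 FC -0.26 ± 0.0496, adjusted p = 0.000486) and SUCLG1 (log2 FC -0.18 ± 0.0483, adjusted p = 0.00745). In senescence 4 of the 17 rose and 6 fell, so that 58.8% were called, close to the 58.1% of all genes tested. The largest decreases were in FH (log2 FC -0.79 ± 0.0521, adjusted p = 1.69e-12) and IDH2 (log2 FC -0.78 ± 0.0568, adjusted p = 1.19e-11). OGDH, a subunit of the oxoglutarate dehydrogenase complex, was among those that rose (log2 FC 0.40 ± 0.0485, adjusted p = 1.1e-07).

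**Figure D4:**
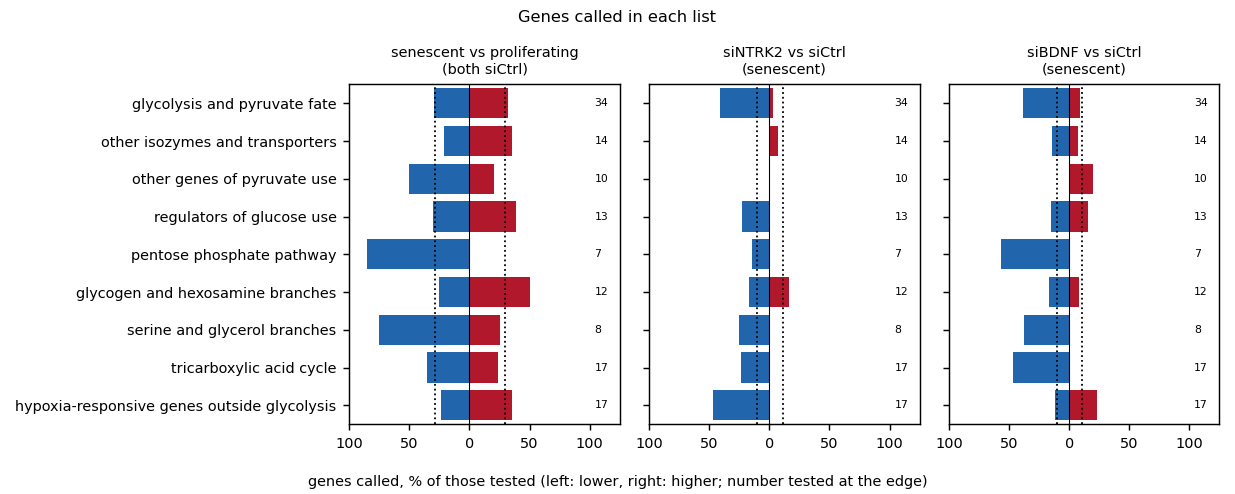
Percent of tested genes called higher (red, to the right) or lower (blue, to the left) in each gene list (y axis) for 3 comparisons; the number tested stands at the right edge and dotted lines give the percent of all genes called in that direction. In senescence 6 of 7 pentose phosphate genes are lower, and with siNTRK2 14 of 34 glycolysis and pyruvate genes and 8 of 17 hypoxia-responsive genes are lower.

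Regulators of glucose use were mixed. For comparison, 29.8% of all genes tested rose and 28.3% fell in senescence. With siNTRK2 11.1% were higher and 10.0% lower, and with siBDNF 10.3% and 10.2%. ARRDC4, an arrestin-like protein that lowers glucose uptake and is induced by glucose through ChREBP and MondoA, stood at 9.2, 8.65 and 8.74 CPM in proliferating libraries, 61.2, 61.4 and 60.9 in senescent libraries with siCtrl, 35.3, 35.3 and 36 with siNTRK2 and 76.2, 69.3 and 73.2 with siBDNF. The 4 groups did not overlap. It rose in senescence (log2 FC 2.79 ± 0.0587, adjusted p = 4.05e-22), was lower with siNTRK2 (log2 FC -0.78 ± 0.0517, adjusted p = 8.72e-11) and was higher with siBDNF (log2 FC 0.25 ± 0.0505, adjusted p = 0.000761). Of the 13 regulators tested, 5 rose and 4 fell in senescence, with RRAD next upward (log2 FC 1.68 ± 0.0899, adjusted p = 2.98e-14) and MYC (log2 FC -0.39 ± 0.0605, adjusted p = 5.71e-06) among those that fell. With siNTRK2, 3 were lower and none higher, and with siBDNF 2 were higher and 2 lower. The largest of these were in MLXIP, which encodes MondoA (log2 FC 0.40 ± 0.0587, adjusted p = 2.03e-05), and EPAS1, which encodes HIF-2alpha (log2 FC -0.35 ± 0.0396, adjusted p = 6.19e-07).

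Hypoxia-responsive genes outside glycolysis were lower with siNTRK2 in 8 of 17 and higher in none, led by CA12 (log2 FC -0.36 ± 0.0678, adjusted p = 0.0004) and ADM (log2 FC -0.30 ± 0.0469, adjusted p = 4e-05). Of all genes tested, 10.0% were lower and 11.1% higher with siNTRK2, and 10.2% lower and 10.3% higher with siBDNF. With siBDNF 4 of the 17 genes were higher, led by INSIG2 (log2 FC 0.41 ± 0.104, adjusted p = 0.00543) and ERO1A (log2 FC 0.30 ± 0.067, adjusted p = 0.00216), and 2 were lower. These were ADM (log2 FC -0.35 ± 0.047, adjusted p = 7.47e-06) and BNIP3 (log2 FC -0.19 ± 0.0514, adjusted p = 0.0105). In senescence 6 were higher, led by MXI1 (log2 FC 0.81 ± 0.0918, adjusted p = 4.23e-08) and NDRG1 (log2 FC 0.71 ± 0.044, adjusted p = 5.87e-13), and 4 were lower. Together 58.8% of the list was called, close to the 58.1% of all genes tested. The lower ones were led by DDIT4 (log2 FC -1.38 ± 0.0691, adjusted p = 7.92e-15) and CA12 (log2 FC -0.91 ± 0.0656, adjusted p = 1.08e-11).

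Phosphatases that reactivate pyruvate dehydrogenase moved against PDK2 in senescence. In the list of other genes of pyruvate use, which holds further genes of the complex, its phosphatases and enzymes of other fates of pyruvate, 5 of 10 fell and 2 rose. That is 70.0% called, against 58.1% of all genes tested. PDP1, the phosphatase of many tissues, stood at 26.1, 25.4 and 22.9 CPM in proliferating and 17.2, 17.8 and 17.5 in senescent libraries (log2 FC -0.51 ± 0.0665, adjusted p = 4.32e-07), and ME1, which makes pyruvate from malate, fell as well (log2 FC -0.60 ± 0.0482, adjusted p = 8e-11). The others that fell were PDP2, PDPR and GPT2. PDHX, which anchors the third enzyme of the complex, rose (log2 FC 0.49 ± 0.052, adjusted p = 1.09e-08), as did ACLY, which makes cytosolic acetyl-CoA from citrate (log2 FC 0.20 ± 0.0387, adjusted p = 0.000111). With siBDNF, PDP2 (log2 FC 0.39 ± 0.109, adjusted p = 0.0112) and PDP1 (log2 FC 0.24 ± 0.0671, adjusted p = 0.0126) were higher and none was lower, where 10.3% and 10.2% of all genes tested were. With siNTRK2 edgeR called none of the 10, and none had an unadjusted p under 0.05.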

How the data were processed

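Polyadenylated RNA of 12 WI-38 libraries was sequenced with a stranded kit. Per the labels and the study's methods, the authors converted reads with bcl2fastq 2.20.0.422, trimmed them with Cutadapt, aligned them to hg19 with STAR 2.4.0j and counted them per Ensembl gene with featureCounts 1.6.4. They deposited 1 file of raw counts per library, without normalization. Strand and multimapping settings of the counting are not given in the sources used here, and 11 members share an exon with a gene that holds over 10% of their counts.

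Counts were scaled by TMM, filtered with filterByExpr and fitted over the 4 groups with the quasi-likelihood test of edgeR 4.0.16 (R 4.3.3), with Benjamini-Hochberg adjustment over 21518 genes. CPM are counts scaled to the normalized library size. RPKM divide them by the Ensembl canonical transcript length (GENCODE lifted to GRCh37), so levels between genes depend on that annotation. Totals of 31567912 to 72328151 counts put the floor of 3 counts at 0.0427 to 0.0916 CPM, which covers counting error only. The fit was tested on simulated data. No library pair agreed within sampling noise.

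The members and the gene lists were chosen with earlier results of these data known. Values in every library are given for the 4 largest increases and decreases per comparison and for members past an absolute log2 fold change of 1, together with some members of the same steps, which were added after their values were seen; from other lists the 2 largest changes in each direction are named, in the siNTRK2 and siBDNF comparison by counts only. Some genes that this rule names are not reported here. Alternatives were DESeq2 1.42.0, other scalings and filters, fewer groups, a replicate block, a length and GC offset (spline with 4 degrees of freedom), a fold cutoff and leaving out each library.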

Additional observations from a re-analysis of the deposited data

How the results depend on the processing

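Of 68 called member results, none reversed in 947 alternative values and 881 stayed on their side of the threshold; 15 results lost the call in some setting, 8 of them in settings other than leaving out a library. All 68 held with DESeq2. Some results that were not called passed under an alternative; the offset for length and GC content gave such calls for PGK1, DLAT and MPC1 and turned SLC16A1 in senescence (values above), and between the siRNAs SLC2A3, TPI1, PGAM1, ENO1, PKM and LDHA passed in at least 1 setting. Called members numbered 19 to 24 (senescence), 11 to 16 (siNTRK2), 12 to 16 (siBDNF) and 12 to 13 (siNTRK2 against siBDNF) when single libraries were left out. With the fold cutoff 4, 1, 0 and 2 remained, since most differences were below 2-fold. Replicate numbers did not pair the libraries (mean correlation of deviations 0.00184 for the same number, -0.0396 to 0.027). With the replicate block, 20, 15, 16 and 15 members were called, and PDK3 in senescence (adjusted p = 0.0685) and PDK3 and PDHA1 between the siRNAs (adjusted p = 0.0524 and 0.0504) lost the call. Isozyme shares depended on length: in the order proliferating, senescent siCtrl, siNTRK2 and siBDNF, shares of raw counts were 9.646, 15.15, 13.7 and 17.4% for HK2, 51.9, 32.5, 39.6 and 31.8% for PFKP and 40.5, 38.4, 38.3 and 34.3% for LDHB. With merged exon lengths, an alternative chosen after seeing the data, they were 11.03, 17.2, 15.6 and 19.7% for HK2, 53.0, 33.7, 40.5 and 33.0% for PFKP and 57.9, 55.8, 55.6 and 51.3% for LDHB. The order of the 4 groups was the same by all 3 measures for HK2, PFKP and LDHB. Depth limited PDK3 and PDK4, which had at most 42 and 84 counts in a library.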

Other observations

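Glycogen and hexosamine genes were among the lists with more rises than falls in senescence, 6 higher and 3 lower of 12, led by GFPT1, the entry enzyme of hexosamine synthesis (log2 FC 0.68 ± 0.0523, adjusted p = 3.09e-11), and PYGB, a glycogen phosphorylase (log2 FC 0.47 ± 0.0486, adjusted p = 6.83e-09), and downward by UGP2 (log2 FC -0.37 ± 0.0533, adjusted p = 1.57e-06) and GNPNAT1 (log2 FC -0.36 ± 0.067, adjusted p = 5.73e-05). With siNTRK2 the same list had 2 higher, PGM2 (log2 FC 0.24 ± 0.0577, adjusted p = 0.0032) and GNPNAT1 (log2 FC 0.19 ± 0.0671, adjusted p = 0.0421), and 2 lower, PGM1 (log2 FC -0.31 ± 0.0637, adjusted p = 0.000827) and PYGB (log2 FC -0.15 ± 0.0484, adjusted p = 0.0302). With siBDNF it had 1 higher, GNPNAT1 (log2 FC 0.34 ± 0.067, adjusted p = 0.000711), and 2 lower, PGM1 (log2 FC -0.24 ± 0.0637, adjusted p = 0.00926) and PYGL (log2 FC -0.16 ± 0.0536, adjusted p = 0.0371). Of 14 other isozymes and transporters tested, 5 were higher and 3 lower in senescence, led by PGAM2, the muscle mutase (log2 FC 1.83 ± 0.328, adjusted p = 3.54e-05), and SLC2A8 (log2 FC 0.71 ± 0.0765, adjusted p = 1.83e-08) upward. SLC16A7 was among the lower ones (log2 FC -0.51 ± 0.114, adjusted p = 0.000492). In that list only ADPGK was called with siNTRK2 (log2 FC 0.15 ± 0.0434, adjusted p = 0.0153), and SLC2A13 (log2 FC 0.33 ± 0.114, adjusted p = 0.0414), PGAM4 (log2 FC -0.24 ± 0.0621, adjusted p = 0.00669) and ENO3 (log2 FC -0.20 ± 0.0589, adjusted p = 0.0154) with siBDNF. Of all genes tested, 58.1% were called in senescence, 21.1% with siNTRK2 and 20.5% with siBDNF. The other isozymes and transporters, at 57.1%, stood close to that share in senescence.

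Of the gluconeogenesis genes, PCK2 and G6PC3 were tested. PCK2, the mitochondrial phosphoenolpyruvate carboxykinase, fell in senescence (log2 FC -1.68 ± 0.0834, adjusted p = 6.85e-15) and was lower with siNTRK2 (log2 FC -0.29 ± 0.0878, adjusted p = 0.0188) and siBDNF (log2 FC -0.31 ± 0.0883, adjusted p = 0.0117). G6PC3 rose in senescence (log2 FC 0.47 ± 0.0568, adjusted p = 1.14e-07) and was lower with siNTRK2 (log2 FC -0.40 ± 0.0566, adjusted p = 1.38e-05) and siBDNF (log2 FC -0.33 ± 0.0566, adjusted p = 0.000164). Among the fibroblast markers, 5 of 7 were lower and 1 higher in senescence, 5 were higher and 1 lower with siNTRK2, and 2 were higher and 3 lower with siBDNF. In the same order, 58.1%, 21.1% and 20.5% of all genes tested were called.

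Between siNTRK2 and siBDNF, 6 of 17 hypoxia-responsive genes were lower with siNTRK2 and none higher. Of all genes tested, 7.86% were lower and 8.84% higher in this comparison. The tricarboxylic acid cycle (4 of 17), pentose phosphate (3 of 7) and serine and glycerol (3 of 8) lists had genes higher with siNTRK2 and none lower. Of 13 regulators 2 were higher and 3 lower, among them ARRDC4 (log2 FC -1.03 ± 0.0518, adjusted p = 2.08e-13). In the list of other genes of pyruvate use 1 of 10 was higher and 2 lower, and in the list of other isozymes 1 of 14 and 3. For the 12 glycogen and hexosamine genes edgeR called none, with an unadjusted p under 0.05 for 2.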
